A study of Mus musculus with 8 samples.

Results

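The RFX genes encode a family of transcription factors and their partners. Peaks of MOF, Rfx2, H3K4me3 and H3K27Ac were described here at the 9 mouse genes Rfx1, Rfx2, Rfx3, Rfx4, Rfx5, Rfx6, Rfx7, Rfxank and Rfxap, out of 26180 genes with a curated RefSeq transcript. The genes were listed by name, with earlier results of these data known, and the family gene Rfx8 is not among the 9. A promoter was taken as the stretch that begins 1 kb before a transcription start site (TSS) and ends 100 bp after it, and the gene body as the rest of the transcribed region, counting only peaks that touch no promoter of the same gene. The 9 genes have 13 TSSs, and 4 of them (Rfx3, Rfx4, Rfx5 and Rfx6) have more than 1.

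Total epidermis was the source of the chromatin, from wild-type mice of mixed C57Bl/6J and CD-1 background at postnatal day 0.5, with no treatment or mutant allele in the groups used. MOF was profiled by ChIPseq on fixed and sonicated chromatin, and Rfx2, H3K4me3 and H3K27Ac by Cut&Run, in which an antibody-tethered nuclease releases the bound fragments. Each antibody had 1 peak list, so no difference below carries a replicate error or a test, and the counts of RFX genes are set beside the share of all genes. The MOF list held 17546 peaks, the Rfx2 list 337, the H3K4me3 list 27039 and the H3K27Ac list 30736, and the lists give no read depth. The MOF list is longer than the number of MOF peaks that the study states, so it may differ from the call used there, and every MOF count and share here refers to the longer list. All epidermal cells were profiled together, so a peak held by few cells and a weak peak held by many cannot be told apart. The H3K4me3 promoter calls covered 6 of 10 epidermal marker genes (Krt5, Krt14, Trp63, Dsp, Itgb4 and Col17a1, but not Krt1, Krt10, Lor or Ivl), against 0 of 5 immune and 0 of 4 neural markers, 2 of 5 fibroblast and 2 of 5 melanocyte markers, 3 of 5 multiciliated cell markers and 1 each of 4 endothelial and 5 endocrine markers. The share over all genes was 54%, so 6 of 10 was close to it. H3K27Ac lay at 3 of the 10 epidermal promoters beside 44.1% of all genes, and MOF at 1 beside 23.7%. In the other cell types H3K27Ac lay at 2 of 5 melanocyte and 1 of 5 multiciliated cell markers only. MOF lay at 2 of 5 fibroblast, 2 of 5 multiciliated cell and 1 of 5 melanocyte markers and at no other.

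RFX factors carry a winged-helix DNA-binding domain and bind the X-box, an inverted repeat of a pair of 6 bp arms, usually as dimers. Rfx2 and Rfx3 are known as activators of genes for motile and primary cilia, Rfx4 for its role in the developing brain and Rfx6 for its role in pancreatic islet cells. Rfx5 has the RFX DNA-binding domain, and with Rfxank and Rfxap, which lack it, forms the complex that switches on MHC class II genes. MOF, also called Kat8, is the lysine acetyltransferase of histone H4 lysine 16. H3K4me3 marks promoters in use and H3K27Ac marks active promoters and enhancers.

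Rfx2 peaks lay at the promoters of 2 of the 9 genes, Rfx1 and its own gene Rfx2, beside 1.21% of all genes. Both promoters are shown because they carry the Rfx2 peaks. They are given 5′ to 3′ in the direction of transcription, from 250 bp upstream to 50 bp downstream of the TSS, from RefSeq on GRCm38.p6, which corresponds to mm10. Capitals mark a pair of X-box arms that point away from each other, called the outward pair here.
Rfx1, chr8:84066586-84066885, plus strand: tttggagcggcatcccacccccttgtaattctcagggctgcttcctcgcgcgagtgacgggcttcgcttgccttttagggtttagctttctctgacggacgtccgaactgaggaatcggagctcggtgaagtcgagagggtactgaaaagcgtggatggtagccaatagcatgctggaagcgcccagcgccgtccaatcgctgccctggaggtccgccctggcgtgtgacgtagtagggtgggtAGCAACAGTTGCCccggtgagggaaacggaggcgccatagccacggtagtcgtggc
Rfx2, chr17:56830959-56831258, minus strand: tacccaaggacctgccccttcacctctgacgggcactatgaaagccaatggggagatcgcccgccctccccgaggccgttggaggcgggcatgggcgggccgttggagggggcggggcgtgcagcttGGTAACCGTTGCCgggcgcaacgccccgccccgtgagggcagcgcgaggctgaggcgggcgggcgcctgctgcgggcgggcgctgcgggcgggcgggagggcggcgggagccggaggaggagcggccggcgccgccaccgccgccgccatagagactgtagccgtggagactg

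The Rfx1 promoter held the higher of these Rfx2 peaks. It spanned chr8:84066662-84067358 with a fold enrichment of 14.2 over local background, rank 23 of 337 and higher than 93.5% of the list. Its width of 697 bp ranked 6 in the list, whose median width was 246 bp. The summit lay 237 bp downstream of the TSS, in intron 1 beyond the promoter window, while the peak itself began 174 bp upstream of the TSS and covered it. All 697 bp of the Rfx2 peak were inside the MOF and H3K27Ac peaks of this promoter. The Rfx2 summit fell 2 bp past the end of an H3K4me3 peak, in a gap of 182 bp before the next H3K4me3 peak.

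At its own promoter, the Rfx2 peak spanned chr17:56830983-56831342 with a fold enrichment of 10.6, rank 52 of 337 and higher than 84.8% of the list. The summit was 174 bp upstream of the TSS. All 360 bp of the peak were inside an H3K27Ac peak of fold enrichment 4.28, higher than 34.5% of the H3K27Ac list. H3K4me3 peaks flanked the TSS on either side with a gap of 226 bp between them, in which the TSS lay. The upstream H3K4me3 peak had a fold enrichment of 3.72, higher than 8.90% of its list, and the downstream one 7.52, higher than 60.2%. The downstream peak ended 102 bp from the TSS and so fell just outside the promoter window. The MOF list had no peak at this promoter, and the nearest peak of that list was 10.3 kb from the TSS.

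That MOF peak lay in intron 1 of Rfx2, where a second Rfx2 peak was called at chr17:56819755-56819956. This intronic Rfx2 peak had a fold enrichment of 7.59, rank 140 of 337, a width of 202 bp and a centre 11.2 kb downstream of the TSS. The MOF peak there had a score of 706, higher than 65.6% of the MOF list, and covered 185 bp of the Rfx2 peak. An H3K27Ac peak of fold enrichment 6.38 covered all of the intronic Rfx2 peak and was higher than 74.8% of its list, against 34.5% for the H3K27Ac peak at the promoter. A narrow H3K4me3 peak of 237 bp and fold enrichment 5.80 covered 111 bp of it. No annotated transcript began near this site, the nearest RefSeq start being 11.1 kb away with predicted transcripts included and the nearest GENCODE M21 start 11 kb away. The same intronic site carried peaks of all 4 lists, while the Rfx2 promoter carried those of 3.

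**Figure D1:**
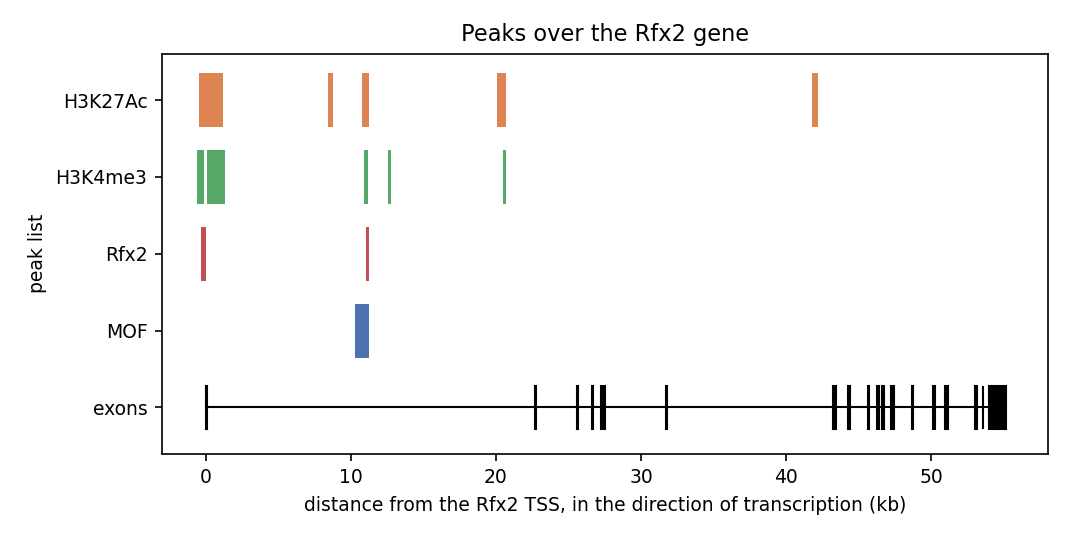
Map of the Rfx2 gene with the distance from its TSS in kb on the horizontal axis (downstream to the right, introns as a line and exons as boxes) and 1 row for each peak list, each box being a peak. The Rfx2 row has 1 box at the TSS and 1 in intron 1, and the single MOF box lies over the intronic one. Peaks under 0.15 kb would be drawn at that width.

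Only Rfx2, among all 26180 genes, had an Rfx2 peak at the promoter and another in the gene body. That count stayed at 1 gene, Rfx2, with windows of 500 bp or 2.5 kb on either side of the TSS, by peak centre and with predicted transcripts included. An Rfx2 peak in the gene body was called for 1 of the 9 genes beside 48 of all genes, 0.183%. With 317 genes having one at the promoter, few genes could be in both groups, and the overlap was not tested against chance. Of the 337 Rfx2 peaks, 255 touched a promoter. The Rfx2 gene body also held 3 further H3K27Ac peaks away from the intronic site, with fold enrichments of 3.98, 4.17 and 4.20, and narrow H3K4me3 peaks of 4.96 and 6.38, all in introns. At 7.26 H3K4me3 and 7.26 H3K27Ac peaks per 100 kb of gene body it was above the mean over all genes of 0.807 and 1.12. The H3K4me3 value includes the peak that ended 102 bp from the TSS.

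**Figure D2:**
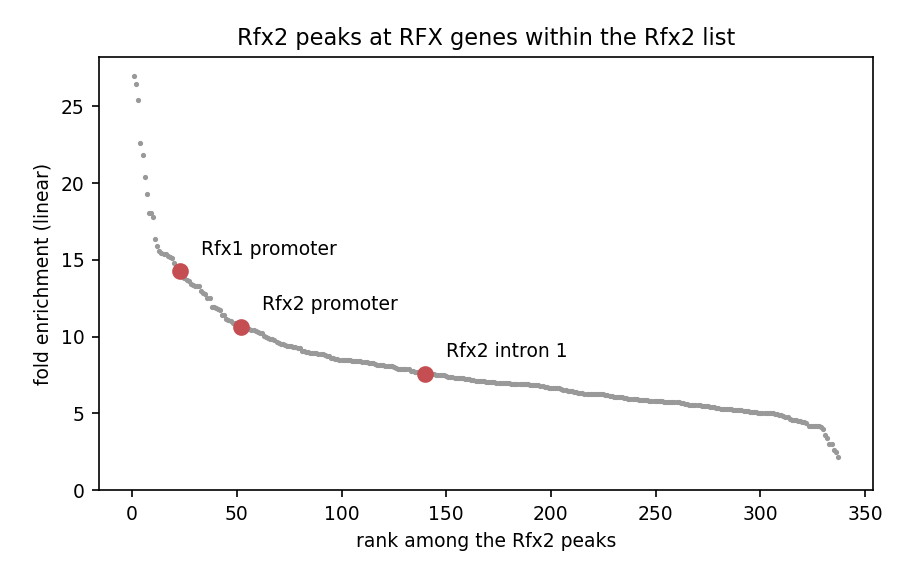
Fold enrichment (linear, vertical axis from 0) of the 337 Rfx2 peaks in order of rank, with grey points for all peaks and red points for the 3 peaks at RFX genes. The Rfx1 promoter is at rank 23, the Rfx2 promoter at rank 52 and the Rfx2 intron at rank 140.

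The other 7 genes had no Rfx2 peak at the promoter or in the body. The nearest Rfx2 peak to a TSS of Rfx4 was 79.2 kb away, beyond the end of the gene. It was 514 kb away for Rfxank, 557 kb for Rfx7 and 670 kb for Rfx5. The distance was 4543 kb for Rfx6, 14062 kb for Rfxap and 17057 kb for Rfx3. Rfx3, which acts on the same class of ciliary genes as Rfx2, thus had the most distant peak of the 9.

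MOF peaks lay at the promoters of 7 of the 9 genes, all but Rfx2 and Rfx4, beside 23.7% of all genes. H3K4me3 peaks lay at 7 promoters beside 54%, and H3K27Ac peaks at 7 beside 44.1%, in both cases all but Rfx4 and Rfx6. MOF and both marks were found together at 6 promoters (Rfx1, Rfx3, Rfx5, Rfx7, Rfxank and Rfxap), beside 21% of all genes. Rfx1 was the only one of the 9 with all 4 lists at its promoter. Of all 26180 genes, 204 had all 4 lists there, which is 64.4% of the 317 genes with an Rfx2 promoter peak. Rfx2 belonged to the 106 of these 317 genes, 33.4%, with both marks and no MOF peak. Values are compared only within a list, since the MOF score and the fold enrichments of the other lists are on different scales.

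**Figure D3:**
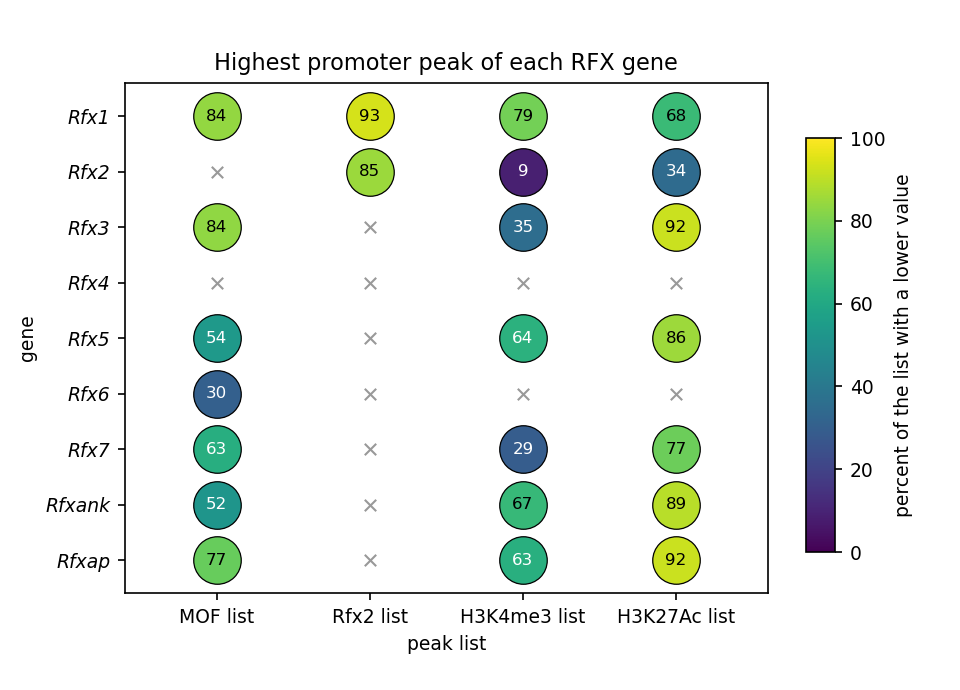
The highest promoter peak of each of the 9 genes (rows) in each of the 4 lists (columns), as the percent of that list with a lower value, printed in each circle and coloured from 0 to 100. Crosses mark genes without a promoter peak in a list. The Rfx2 column has circles for Rfx1 and Rfx2, and the Rfx4 row has none.

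Among the ciliary and broadly expressed members, the Rfx1 promoter had the highest MOF score of the family, 919, over chr8:84066055-84067563 and higher than 83.7% of the list. Its H3K4me3 peak was also the highest at a promoter among the 9 genes, with a fold enrichment of 9.46. Its H3K27Ac peak reached 5.83. At the upstream TSS of Rfx3 the MOF score was 916, over chr19:28010894-28012222, close to that of Rfx1. The Rfx3 H3K27Ac peak had a fold enrichment of 8.52, higher than 91.8% of its list, and ended 97 bp upstream of that TSS. Its H3K4me3 peak was the widest among the 9 genes, 2446 bp, with a fold enrichment of 5.42 that exceeded 35.2% of the list. Both Rfx3 TSSs had this H3K4me3 peak in their promoter windows, whereas the MOF and H3K27Ac peaks touched the window of the upstream TSS alone.

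The 3 genes of the MHC class II complex had the same set of promoter peaks. For Rfx5, the DNA-binding subunit, MOF scored 619 over 546 bp at chr3:94953952-94954497, the narrowest MOF peak of the family at a promoter. Its H3K4me3 and H3K27Ac peaks had fold enrichments of 7.86 and 7.46. For Rfxank, the ankyrin-repeat subunit, the MOF score was 603 and the fold enrichments were 8.15 for H3K4me3 and 7.99 for H3K27Ac. For Rfxap the MOF score was 816 and the fold enrichments were 7.77 and 8.59, the latter the highest H3K27Ac value of the family. The 3 H3K4me3 peaks thus lay within 7.77 to 8.15, in the range from 63.2% to 67.1% of the list. Rfxank starts 302 bp from Borcs8 on the other strand, with Gm45929 starting at the same base as Borcs8, so its promoter peaks cannot be told apart from theirs.

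Rfx7 had the widest MOF peak of the family, 2640 bp at chr9:72530333-72532972, with a score of 673. H3K4me3 and H3K27Ac left its TSS uncovered. The H3K4me3 peaks ended 252 bp upstream and resumed 197 bp downstream, with fold enrichments of 5.02 and 6.28, and the H3K27Ac peaks had 6.59 and 4.28. The noncoding gene 4930509E16Rik starts 382 bp away on the other strand, so the promoter peaks are shared with it.

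Rfx6 had a MOF peak at its upstream TSS, chr10:51677675-51678484, with a score of 494 that exceeded 30.3% of the list, the lowest of the 7. Neither mark was called there, and the nearest H3K4me3 and H3K27Ac peaks to either Rfx6 TSS were 534 kb and 535 kb away. MOF without either mark was found at 233 of the 6195 genes with a MOF promoter peak, 3.76%. Rfx4 had no promoter peak in any list, as had 11545 of all genes, 44.1%. Its 1 MOF peak lay in intron 1 with a score of 379, higher than 12.7% of the list.

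**Figure D4:**
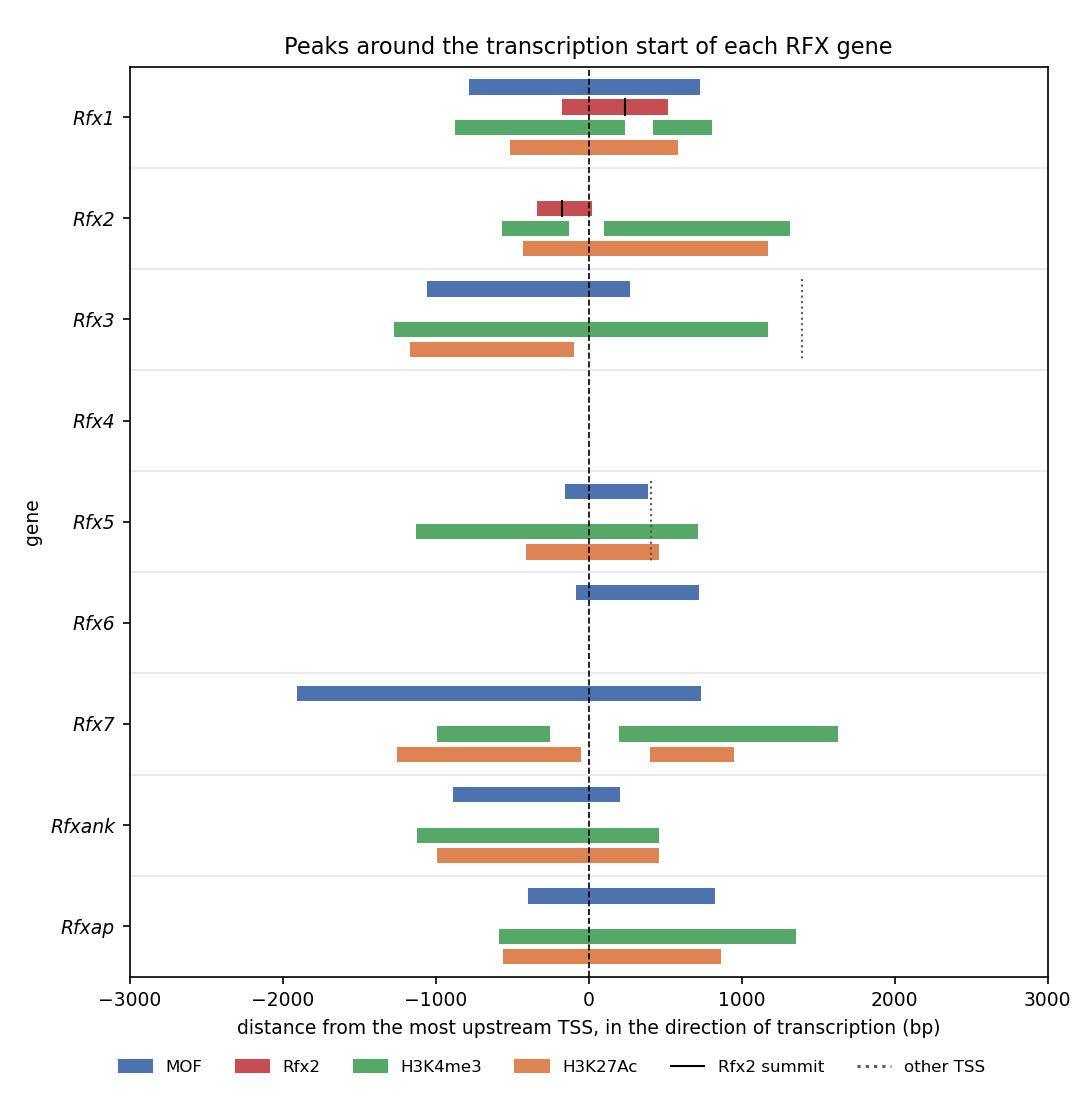
Peaks of the 4 lists within 3000 bp of the most upstream TSS of each gene, with distance in bp in the direction of transcription on the horizontal axis, 1 block of rows for each gene, boxes for peaks, a black tick for the summit of each Rfx2 peak and a dotted line for another TSS of the same gene. The Rfx2 summit lies downstream of the TSS at Rfx1 and upstream at Rfx2, and the gaps between H3K4me3 peaks at Rfx2 and Rfx7 contain the TSS.

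Gene bodies beyond the promoters held MOF peaks in 4 of the 9 genes (Rfx1, Rfx2, Rfx4 and Rfx7) beside 17.5% of all genes. H3K4me3 peaks were found in 5 beside 20.3%, and H3K27Ac peaks in 4 beside 20.5%. Some of these flank the promoter. The only H3K4me3 body peaks of Rfx1 and Rfx7 were centred 614 bp and 914 bp downstream of the TSS. The only H3K27Ac body peak of Rfx7 was centred 675 bp downstream. The MOF count fell to 1 gene, Rfx2, with the higher 50% of the list by score and reached 8 when peaks that also touch the promoter were included, beside 9.4% and 33.3% of all genes. The H3K4me3 count was 3 (Rfx2, Rfx7 and Rfxank) with the higher 50% of the list by −log10 q-value, beside 8.09%. By fold enrichment, the measure used for ranks elsewhere, the Rfx7 body peak exceeded 45.5% of the list and would fall below such a limit. Over the 649 kb of the 9 gene bodies MOF had 0.616 peaks per 100 kb, against 0.627 over all genes. The respective values were 1.23 and 0.807 for H3K4me3, and 1.23 and 1.12 for H3K27Ac. Of the 8 H3K4me3 peaks, 4 were in Rfx2, as were 4 of the 8 H3K27Ac peaks.

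The body peaks of Rfxank were at its last exon, with fold enrichments of 13.7 for H3K4me3, higher than 97.3% of the list, and 7.82 for H3K27Ac, and both overlapped the promoter of the neighbouring gene Nr2c2ap. The MOF peak in intron 7 of Rfx1, with a score of 395, overlapped the promoter window of the microRNA gene Mir709. In Rfx3, H3K27Ac and H3K4me3 peaks of fold enrichment 6.02 and 6.32 coincided over a coding exon 241 kb downstream of the nearer TSS. A further H3K27Ac peak of 3.59 lay in intron 1 of Rfx3. The MOF peak in intron 5 of Rfx7 had a score of 294, higher than 1.78% of the list.

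The X-box was searched on both strands as its full consensus with 0 to 3 bases between the arms. No promoter of the 9 genes held it, beside 3% of all genes, and none did within 2.5 kb on either side of a TSS, beside 7.85%. Within 250 bp of the summit, 96 of the 337 Rfx2 peaks held an X-box, 28.5% (95% exact binomial interval 23.7 to 33.6, counting error only), against 1.22% of 26714 H3K4me3 peaks without an Rfx2 peak. The 3 Rfx2 peaks at RFX genes were not among the 96. A single exact arm, GTTGCC or its reverse complement GGCAAC, was present in the promoters of 6 genes (Rfx1, Rfx2, Rfx3, Rfx5, Rfx6 and Rfxank), beside 35.4% of all genes. With 1 mismatch allowed, an X-box was present in 5 promoters (Rfx1, Rfx2, Rfx3, Rfx4 and Rfx6), beside 30.4%. Some of these matches overlap the single arms. Within 250 bp of the summit, 187 of the 337 Rfx2 peaks held the exact arm, 55.5%. An X-box with 1 mismatch was there in 236, 70%. The shares of H3K4me3 peaks without an Rfx2 peak were 18.1% and 15.7%. Each of the 3 Rfx2 peaks at RFX genes held both patterns within that distance.

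The outward pair, in which the arms stand back to back instead of facing each other, was noticed in the sequences of Rfx1 and Rfx2 and then searched on both strands with the same spacing of 0 to 3 bases. It occurred in the promoters of 3 of the 9 genes, Rfx1, Rfx2 and Rfx3, beside 0.997% of all genes, and only the Rfx3 pair was found by the search itself. In each of these 3 genes a pair with a spacer of 1 base contained the exact arm GTTGCC. The pairs are shown on the transcribed strand with their flanks, the pair in capitals, because the 3 genes share them while the Rfx2 peak is at Rfx1 and Rfx2 alone.
Rfx1, chr8:84066818-84066854: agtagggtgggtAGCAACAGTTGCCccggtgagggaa
Rfx2, chr17:56831107-56831143: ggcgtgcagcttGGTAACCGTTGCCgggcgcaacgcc
Rfx3, chr19:28011118-28011154: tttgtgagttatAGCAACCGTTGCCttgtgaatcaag

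The pair began 6 bp upstream of the TSS in Rfx1, 123 bp upstream in Rfx2 and 24 bp downstream in Rfx3. It was inside the Rfx2 peak at Rfx1 and at Rfx2, with its centre 237 bp and 57 bp from the summit. Nearer the Rfx1 summit, at 18 bp and 26 bp, were X-boxes with 1 mismatch. In Rfx2 the arm GTTGCC also opened an X-box with 1 mismatch, GTTGCCGGGCGCAAC, centred 65 bp from the summit. Rfx3 held a second outward pair 70 bp downstream of its upstream TSS, GGCGACTGTTACC. The intronic Rfx2 peak held none of the 4 patterns wholly within its 202 bp. An X-box with 1 mismatch, GTAGTCAAGGCAAC on the plus strand, began at the last base of this peak and was centred 134 bp from the summit, within the 250 bp searched around each summit. It contains the exact arm GGCAAC. Its sequence is shown on the transcribed strand as the site with peaks of all 4 lists.
Rfx2 intron 1, chr17:56819755-56819956: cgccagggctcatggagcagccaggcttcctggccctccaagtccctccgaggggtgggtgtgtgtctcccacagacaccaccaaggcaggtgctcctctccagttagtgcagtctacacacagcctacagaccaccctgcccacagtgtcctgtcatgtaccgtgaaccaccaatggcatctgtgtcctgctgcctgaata

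The outward pair was not a general feature of the Rfx2 list, since it was within 250 bp of the summit in 6 of the 337 peaks, 1.78%, and in 4 of 335, 1.19%, without the Rfx1 and Rfx2 promoter peaks in which it was noticed. It was present in 0.445% of the H3K4me3 peaks without Rfx2. Of the 261 genes with the pair in the promoter, 9 had an Rfx2 promoter peak, 3.45% of the 261 and 2.84% of the 317 genes with such a peak, and without Rfx1 and Rfx2 these were 7 of 259, 2.70%. For the X-box the shared genes numbered 83, 10.6% of the 785 genes with the motif and 26.2% of the 317. For the single exact arm they numbered 215, 2.32% of 9259 genes and 67.8% of the 317. Of all genes, 1.21% had an Rfx2 promoter peak, 0.997% the pair, 3% the X-box and 35.4% the exact arm.

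Promoter sequences of 300 bases were matched for 8 of the 9 genes, not for Rfxap. CpG counts were 53 for Rfx7, 38 for Rfx2, 31 for Rfx3, 25 for Rfx1, 20 for Rfxank and 16 for Rfx5, against a median of 7 over 32851 promoter sequences. The upstream Rfx4 promoter, which had no peak, also held 20 CpG, and the downstream Rfx4 promoter held 3. The promoter at the downstream TSS of Rfx6 held 2. The CCAAT box, in either orientation, was present in 5 of the 9 sequences (1 each of Rfx1, Rfx2, Rfx4, Rfx5 and Rfxank) beside 37.4% of all. It is the site of NF-Y, which joins the RFX complex at MHC class II promoters.

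Of the genes that work with the family, Rfx8, the remaining RFX gene, had an H3K4me3 promoter peak and no other. The partners at MHC class II promoters had MOF, H3K4me3 and H3K27Ac peaks at 4 of 5 genes (Creb1, Nfya, Nfyb and Nfyc, not the class II transactivator Ciita) and no Rfx2 peak, and MOF and both marks were together at 21% of all genes. Among 12 MHC class II and class I genes, 4 had a MOF, 6 an H3K4me3, 3 an H3K27Ac and 0 an Rfx2 promoter peak, beside 23.7%, 54%, 44.1% and 1.21% of all genes. Of these, the classical class II genes H2-Aa and H2-Eb1 and the invariant chain gene Cd74 had none, and H2-Ab1 had MOF and H3K4me3 peaks. Among 9 regulators of ciliogenesis, 1 had a MOF, 6 an H3K4me3 and 4 an H3K27Ac promoter peak, beside the same shares of 23.7%, 54% and 44.1%. Foxj1, the master regulator of motile cilia, was the only 1 of the 9 with an Rfx2 promoter peak, of fold enrichment 8.45 and rank 103, below both RFX promoters. Foxj1 had H3K4me3 but no MOF or H3K27Ac peak at its promoter.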

How the data were processed

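The authors aligned reads to mm10 with Bowtie2 and called peaks with MACS2 on each sample by itself. Control libraries and excluded regions were not given in the sources used here. The deposited MOF list holds broad regions with a peak score of unstated scale and no fold enrichment, q-value or summit, and it has more regions than the study states for its MOF peaks. The deposited Rfx2, H3K4me3 and H3K27Ac lists hold a fold enrichment (a ratio to local background), −log10 q-values and a summit. The labels tie the H3K27Ac list to the repeat library. They give the same for H3K4me3, but that list's own name does not mark it. Other libraries of the 8 labelled samples were not used here.

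TSSs came from curated RefSeq transcripts on GRCm38.p6. No peak ended beyond a chromosome, and 53.2% of H3K4me3 summits lay within 1000 bp of a TSS, against 4.51% after a shift of 50000 bp. Overlap needed 1 bp. Peaks were ranked by score (MOF) or fold enrichment. Overlaps were tested on simulated data and did not differ from those of bedtools 2.31.1. Python 3.11.15, pandas 2.3.3 and pysam 0.24.0 were used. No test was run, since each antibody had 1 list. The genes, gene lists and motifs were chosen with earlier results of these data known. Every promoter peak of the 9 genes is reported, with body peaks by count and example, and the genes most like Rfx2 by Euclidean distance over the 4 within-list percentiles of the highest promoter peak. Other windows, peak centres, the higher 50% of each list by score or −log10 q-value, predicted transcripts and other motif rules were the alternatives.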

Additional observations from a re-analysis of the deposited data

How the results depend on the processing

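Of 46 recounts under other settings, 38 stayed within 1.5 times of the reported count and 25 gave the same number. With the peak centre in place of the whole peak, Rfx2 peaks were counted at 1 promoter (Rfx2, beside 0.997% of all genes) and in 2 gene bodies (Rfx1 and Rfx2, beside 0.393%), because the centre of the Rfx1 peak lies 174 bp downstream of the TSS. With the higher 50% of each list (by score for MOF, by −log10 q-value for the others), MOF peaks were counted in the body of 1 gene (Rfx2, beside 9.4% of all genes) and H3K4me3 peaks in 3 (beside 8.09%), and both Rfx2 promoter peaks remained (beside 0.619%). Settings chosen after seeing the data were body peaks that also touch the promoter, which gave 8 genes for MOF (beside 33.3%) and 2 for Rfx2 (beside 0.649%), the inner part of the MOF regions, which changed no count, and the X-box with 1 mismatch, found at 5 genes (beside 30.4%) in place of 0. The single exact arm was found at 6 (beside 35.4%). No paired analysis was possible because no antibody had more than 1 peak list. For the same reason no result has a replicate error, and weak sites may be missing from a list of 337 peaks. The MOF list is longer than the study's stated number of MOF peaks, so it may not be the final call, and a MOF peak missing from the Rfx2 promoter says only that none is listed.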

Other observations

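By the Euclidean distance over the within-list percentiles of the highest promoter peak in the 4 lists, with 0 where a gene has none, the genes most like Rfx2 were Ing1 (distance 35.1), the microRNA gene Mir7045 (35.5) and Slc27a1 (37.4). Ing1 encodes a reader of H3K4me3 and Slc27a1 a fatty acid transporter. Their Rfx2 promoter peaks were higher than 54.5%, 92.3% and 66.7% of the Rfx2 list respectively. The distance includes the Rfx2 list, where Rfx2 exceeded 84.8%, so genes this near had to have an Rfx2 promoter peak. Mir7045 shared with Rfx2 the lack of a MOF peak.

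The 9 genes with both an outward pair of X-box arms and an Rfx2 peak in the promoter were 2010109A12Rik, 4933430I17Rik, Ift81, Lrrc27, Mus81, Pole3, Rfx1, Rfx2 and Wwox. Ift81 encodes a component of intraflagellar transport in cilia. The names were read after the search, and neither the pair nor the peak was tested against chance.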
